A study of Cricetulus griseus with 8 samples.

Results

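Interferon-stimulated and antiviral sensing genes were followed in LR73 cells, a hamster phagocyte line, kept by themselves or fed apoptotic human T cells. The 50 genes came from a list of symbols and were looked up by name in the gene column of the expression table. The list was chosen with earlier results of these data known. Of the 50 genes, 42 were present among the 26776 named genes, and 34 reached the mean of 10 normalized counts required for a test. Ifnar2, Oas1, Oas1a, Oas2, Ifit1, Mx1, Mx2 and Gbp2 had no row of that name and were not analysed here. A normalized count is a read count divided by 1 size factor per library, so values can be compared between libraries for 1 gene but not between genes of different length.

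The 4 libraries called alone held LR73 phagocytes, which the labels describe as fibroblasts. The 4 co-culture libraries held LR73 phagocytes together with apoptotic Jurkat cells, a human T cell line. The Jurkat cells had received UV-C light at 1500 mJ and 4 h of culture before they were added, and all phagocytes were grown in alpha-MEM with fetal bovine serum. The length of the co-culture is not given in the sources used here, and the 8 column names share the prefix GFP, which the labels do not explain. The 4 samples of a group are biological replicates of 1 cell line, per the series design text.

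Cells that detect viral RNA or DNA make type I interferon, which binds a receptor of the subunits IFNAR1 and IFNAR2. The receptor acts through JAK kinases to assemble the complex ISGF3, which holds STAT2 and IRF9, and this complex switches on a broad set of interferon-stimulated genes that block viral growth, sense nucleic acids and load peptides onto MHC class I. In many cells a low, tonic level of this signalling keeps part of the programme expressed without infection.

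Depth over named genes ran from 22.7 to 29.7 M reads (M for mega). Libraries are called alone 1 to 4 and co-culture 1 to 4. Alone library 1 stood apart, at -25.1 on the leading principal component where the other alone libraries lay between -9.13 and -5.65. Of 18 fibroblast markers in the table, 13 had a mean of at least 10 normalized counts, vimentin and fibronectin among them, while Thy1 was listed at 0 and the type I collagen genes Col1a1 and Col1a2 had 4 and 10 reads in all. Reads under T cell markers differed between the groups in both directions. Of 29 such markers in the table, 23 had 5 or fewer reads in the alone libraries together. These 23 held 13 reads alone and 101 in co-culture (16 markers had more reads and 1 had fewer). They were picked by their low reads alone, which favours a rise. Cd3d, Cd3g and Cd2 stood at 0 in every library. The summed level of all 29 was 1493 to 1598 normalized counts alone and 1369 to 1433 in co-culture, mostly from Tcf7, Themis and Lat. Of the 5 T cell markers with a mean of at least 10, the test described below called 2 lower (Cd28 and Themis) and 0 higher. It called 5.31% of all tested genes lower and 6.36% higher. Of the 13 fibroblast markers with a mean of at least 10, 1 was called lower (Dcn) and 2 higher (Col6a1 and vimentin). Myeloid markers summed to 62.7 to 105 normalized counts alone and 66.2 to 96.7 in co-culture. Epithelial markers summed to 309 to 338 alone and 264 to 297 in co-culture, mostly from Cdh1 and Krt5. Of these 2, Cdh1 was called lower. The part of human RNA in the member values below was not tested.

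With apoptotic cells, members were lower more often than higher. By limma, which fits a linear model to each gene's log2 values and shares information on the spread across genes (adjusted p under 0.05 over all 13494 tested genes), 8 of 34 tested members fell and 0 rose, where 5.31% of all tested genes fell and 6.36% rose. The 8 were Oasl, Parp10, Parp12, Ifi44, Parp14, Irf2, Irf1 and Trim21. At an unadjusted p under 0.05, 22 members were lower and 0 higher, against 12.8% and 13.7% of all tested genes, and edgeR and DESeq2 also called 0 members higher. The 4 co-culture values lay below all 4 alone values in 13 members and above them in 0, where 9.72% and 11.4% of all tested genes were so separated. The fitted log2 fold change was negative in 31 of 34 members, with a median of -0.23, beside 0.00 over all tested genes. Xaf1 and Ifi44 passed the filter on low values only through their alone libraries, which fixes the direction of their difference. Both are among the 22, 13 and 31 members counted above, and Ifi44 is among the 8. A mean of at least 10 in each group was an alternative chosen after seeing the data, and it can remove genes that fell. With it, 7 of 32 members fell and 0 rose, against 5.32% and 6.34% of all genes tested that way. Of these 32 members, 11 had co-culture values wholly below the alone values, and the median log2 fold change was -0.199, beside 0.002 over all genes. The share of all genes so separated under that filter was not computed. In bulk RNA, fewer cells of a type and less RNA per cell cannot be told apart.

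**Figure D1:**
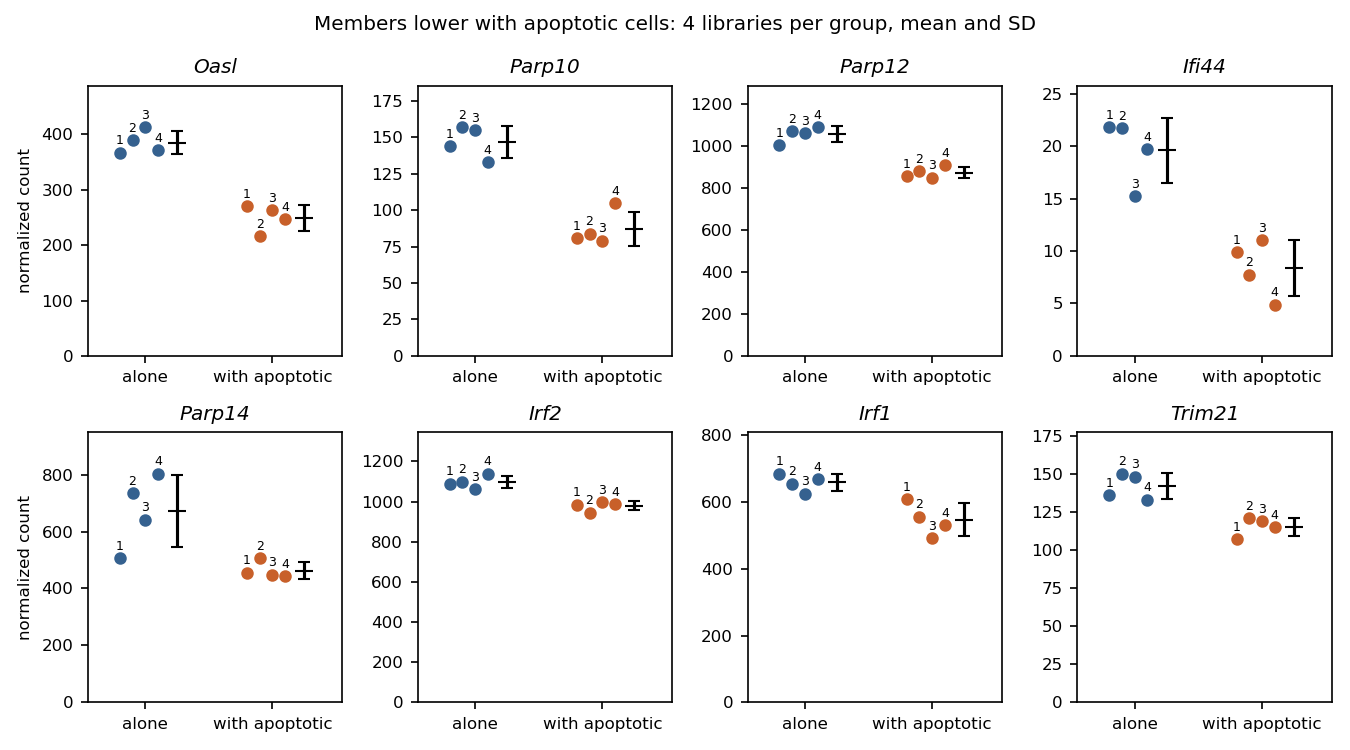
Normalized counts (vertical axes, from 0) of the 8 members called lower by limma, in 4 libraries of phagocytes alone (blue) and 4 with apoptotic cells (orange), numbered, with the mean and SD of each group beside them. The groups do not overlap in any of the 8 genes, and Parp14 in alone library 1 (507 normalized counts) lies next to the highest co-culture (506).

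The count of calls depended on single libraries. Without alone library 1, 20 of 34 members fell and 0 rose, against 12.5% and 13.4% of all tested genes, and 20 members had co-culture values wholly below the alone values, against 15.7%. Ifi44 and Xaf1, whose direction the filter fixes, are in both counts of 20. Leaving out another library gave 8 calls (alone library 2), 6 (alone library 3), 4 (alone library 4), 5 (co-culture 1), 6 (co-culture 2), 4 (co-culture 3) or 4 (co-culture 4). Of these, 7 without alone library 2 and 5 without co-culture 2 were among the 8 called with all libraries. The calls gained there were Dhx58 and Xaf1 in turn. The share of all tested genes called lower in these settings was 2.64 to 4.42%. Oasl, Parp10 and Parp12 were called under all 18 alternatives (other filters, pseudocounts, scalings, tools and weights, the replicate block, and each library left out). In the authors' deposited table, 7 members were lower and 0 higher at an adjusted p under 0.05, where 5.48% and 6.71% of its genes with an adjusted p were. These 7 were the 8 called here without Trim21, which has an adjusted p of 0.0899 in the authors' deposited table.

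**Figure D2:**
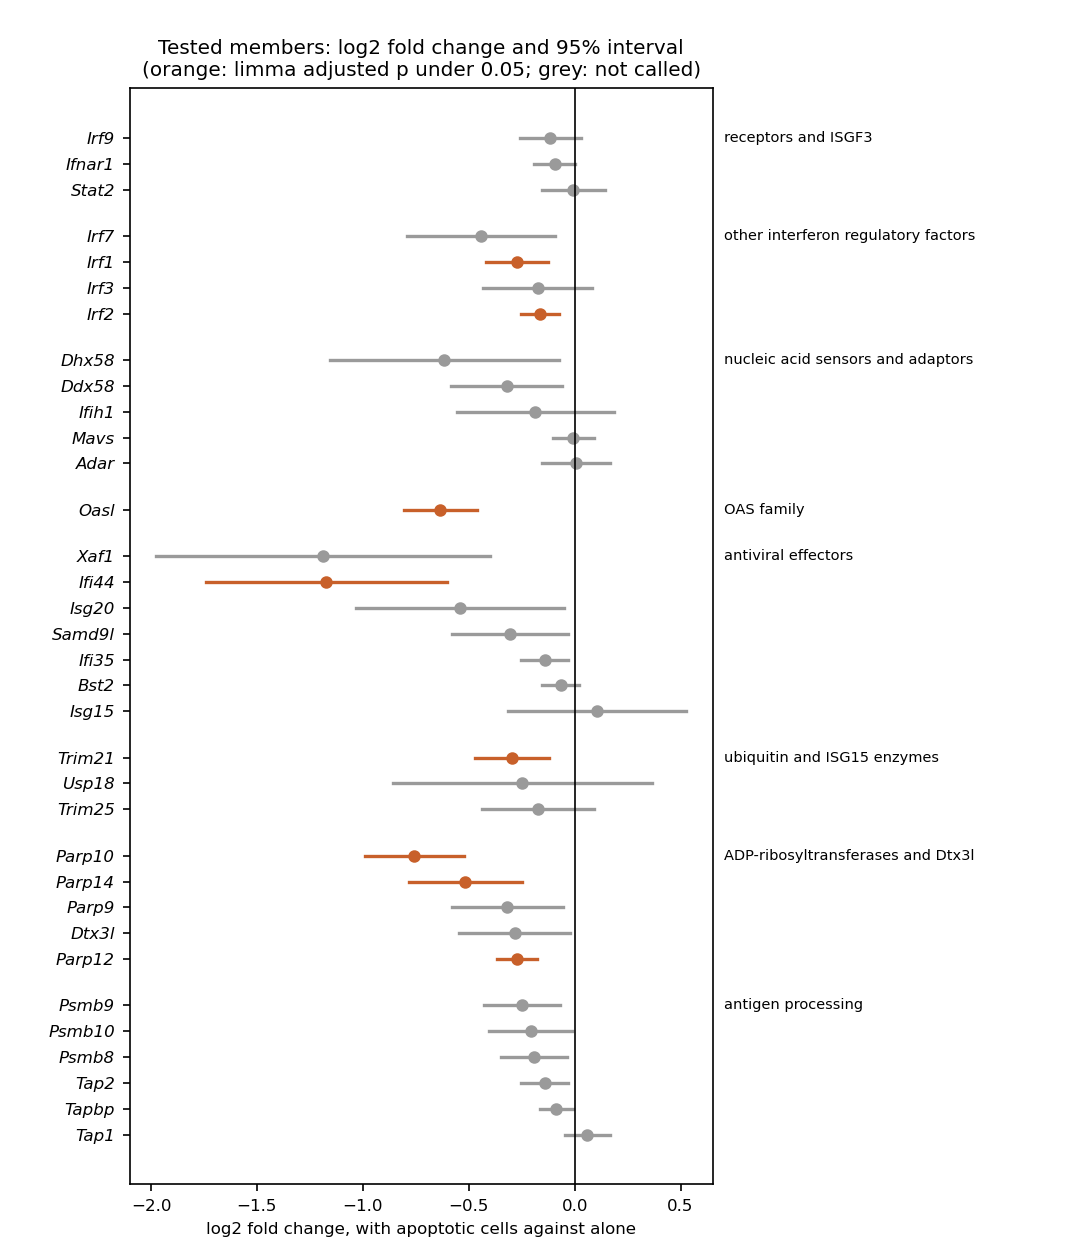
Log2 fold change (points) with its 95% interval (lines) for the 34 tested members, with apoptotic cells against alone, grouped by role; orange marks a limma adjusted p under 0.05 and grey the rest. Points lie left of 0 for 31 members, and the 3 to the right are Adar, Isg15 and Tap1.

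No listed gene of the receptor or of ISGF3 passed the test with all libraries (0 of 3 tested, where 5.31% of all tested genes were called lower). Ifnar1, a subunit of the type I interferon receptor, stood at 1780, 1996, 2019 and 2001 normalized counts in alone libraries 1 to 4 and at 1821, 1826, 1812 and 1829 in co-culture libraries 1 to 4. Alone library 1 was the lowest of all 8, and the other alone libraries lay above every co-culture. The log2 fold change was -0.10 (SE 0.04, adjusted p by limma = 0.2), and without alone library 1 it was -0.14 (adjusted p = 0.00122). Stat2, the STAT protein particular to ISGF3, read 543, 684, 637 and 615 alone and 613, 597, 623 and 628 in co-culture. Its groups overlapped, and its 95% interval ran from -0.15 to 0.14 on the log2 scale (adjusted p by limma = 0.962), with a sign that turned with the library left out. Irf9, the DNA-binding part of ISGF3, read 444, 444, 382 and 399 alone and 381, 408, 376 and 373 in co-culture (fitted log2 difference -0.12, SE 0.07, adjusted p by limma = 0.287). Both groups of Irf9 shared the range from 382 to 408.

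Among the other interferon regulatory factors, Irf1 and Irf2 fell. Irf1, an activator that both interferon types induce, read 685, 655, 625 and 669 normalized counts alone and 608, 556, 491 and 530 in co-culture, from a mean of 659 ± 25.3 to 547 ± 49.1 (SD, n = 4 per group). The log2 fold change was -0.27 (SE 0.07, adjusted p by limma = 0.0243), and the highest co-culture lay just under the lowest alone library. Leaving out alone library 4, co-culture 2, co-culture 3 or co-culture 4 ended the Irf1 call (adjusted p = 0.0594 to 0.0744). Irf2, which competes with Irf1 for the same DNA element and mostly represses, read 1089, 1099, 1063 and 1139 alone and 985, 945, 998 and 988 in co-culture, a log2 fold change of -0.16 (SE 0.04, adjusted p by limma = 0.024). The 4 co-culture values of Irf2 lay between 945 and 998, below the lowest alone value of 1063. The call did not hold once alone library 4, or any single co-culture, was left out (adjusted p = 0.0536 to 0.0805).

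Irf7, the factor that amplifies interferon production, was a low transcript at 46.5, 35, 37.6 and 35.2 normalized counts alone and 31.6, 22.1, 29.7 and 29.4 in co-culture. The groups did not overlap, but the log2 fold change of -0.44 (SE 0.16) had a limma adjusted p of 0.103. Irf3, which the RNA and DNA sensors activate directly, read 201, 139, 146 and 161 alone and 129, 157, 141 and 142 in co-culture (fitted log2 difference -0.18, adjusted p by limma = 0.367). Without alone library 1, which held the highest value of Irf3, the log2 fold change was -0.07. Irf5 had 15 reads over all 8 libraries and was not tested.

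No listed sensor or adaptor of nucleic acids passed the test with all libraries (0 of 5 tested, where 5.31% of all tested genes were called lower). Ddx58, which encodes the RNA sensor RIG-I, read 277, 385, 372 and 415 normalized counts alone and 270, 295, 321 and 264 in co-culture. Alone library 1 lay inside the co-culture range and the other alone libraries above it. The log2 fold change was -0.32 with all libraries (SE 0.12, adjusted p by limma = 0.11) and -0.44 without that library (adjusted p = 5.06e-05). Ifih1, the related sensor MDA5, showed the same placement of alone library 1, with 141, 228, 211 and 218 alone and 132, 205, 181 and 179 in co-culture. Its log2 fold change was -0.19 (SE 0.17, adjusted p by limma = 0.509), or -0.34 without alone library 1 (adjusted p = 0.0183). Dhx58, the regulatory member LGP2 of that helicase family, was low, at 30.4, 16.7, 28.4 and 30 alone and 15.8, 17.7, 22 and 11.7 in co-culture (fitted log2 difference -0.61, SE 0.24, adjusted p by limma = 0.138). Here alone library 2 was the low one, and without it the adjusted p was 0.0465. Leaving out any other library gave no call of Dhx58 (adjusted p = 0.136 without alone library 1).

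Mavs, the mitochondrial adaptor through which RIG-I and MDA5 signal, read 723, 756, 788 and 751 alone and 746, 731, 778 and 749 in co-culture. The groups lay on top of each other, and the 95% interval of the log2 fold change ran from -0.10 to 0.09 (adjusted p by limma = 0.939), with a sign that turned with the library left out. Adar, the RNA-editing enzyme that keeps the cell's own double-stranded RNA from being sensed, stood at 1376 ± 150 alone and 1378 ± 50.7 in co-culture (95% interval -0.15 to 0.17, adjusted p by limma = 0.953), and its sign turned too. Tmem173, which encodes the DNA-sensing adaptor STING, had 32 reads in all libraries, with 1.01 to 6.67 normalized counts alone and 1.11 to 3.91 in co-culture, and was not tested. Eif2ak2, the kinase PKR, was listed with 1 read in all.

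**Figure D3:**
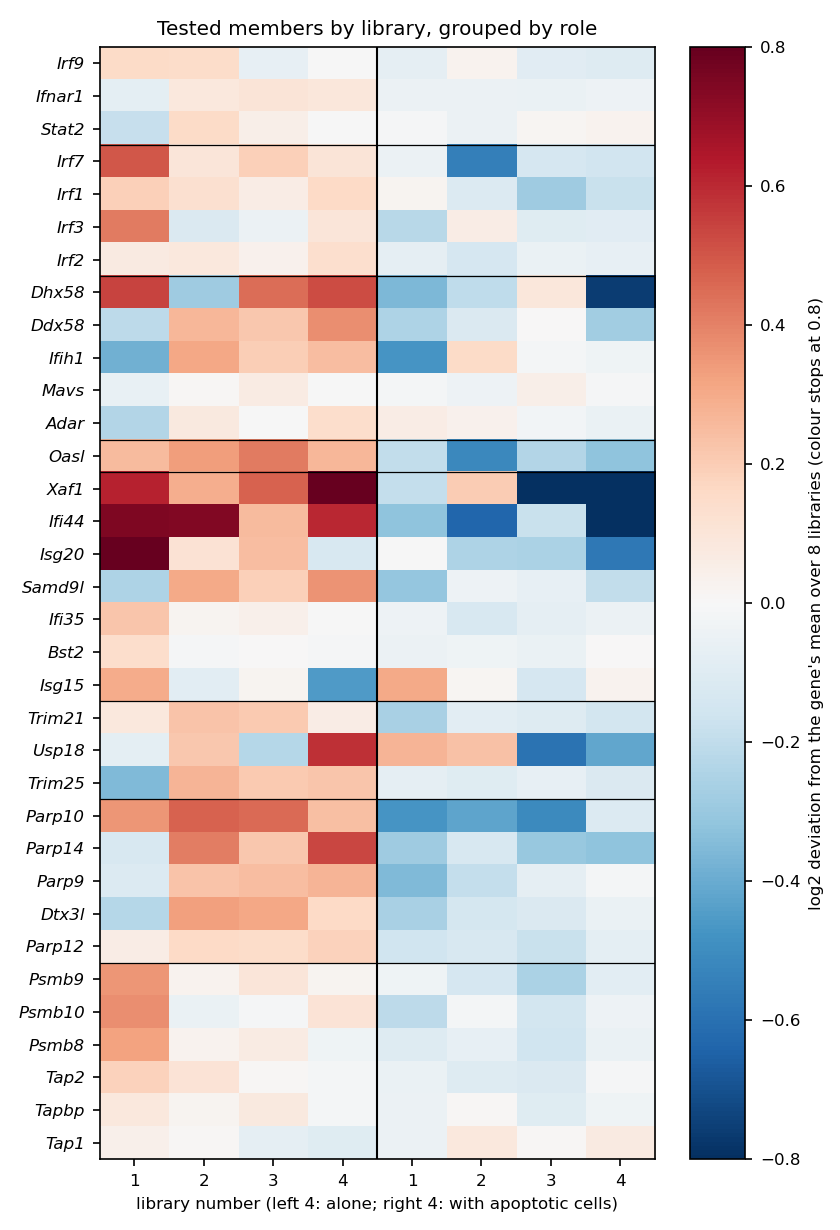
Log2 deviation of each tested member (rows, grouped by role) from its own mean over the 8 libraries (columns; alone left, with apoptotic cells right), red above and blue below, with the colour stopped at 0.8. In alone library 1, Ddx58, Ifih1, Samd9l, Trim25 and Dtx3l are blue, below their own means, while in the other alone libraries they are red, and Psmb8, Psmb9 and Psmb10 are at their highest.

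Oasl, the 2′-5′-oligoadenylate synthetase-like protein that supports RIG-I signalling in human cells, had the smallest adjusted p of the members. It read 367, 389, 413 and 371 normalized counts alone and 270, 216, 263 and 247 in co-culture. The highest co-culture, at 270, stood well under the lowest alone library, at 367, and the mean fell by 35.5% (fitted log2 difference -0.63, SE 0.08, adjusted p by limma = 0.00076). The Oasl call held under all 18 alternatives (adjusted p = 1.37e-09 to 0.00502). Oas3, an enzyme that makes the activator of RNase L, was listed at 0 reads in all 8 libraries, which allows up to 0.101 to 0.132 CPM (reads scaled to a library of 1 M). How reads shared by closely similar OAS copies were counted is not stated, so the level of any one gene of that family is uncertain.

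Several classical effectors had few or no reads in either group. Rsad2 (viperin) and Cmpk2, which stand next to each other in the RefSeq gene order of the CriGri-PICRH-1.0 assembly, were both listed at 0 reads in every library. Ifit2 and Ifit3, which bind viral RNA, had 9 and 5 reads in all. Isg15, the ubiquitin-like modifier, read 28.5, 21.7, 23.3 and 16.5 normalized counts alone and 28.6, 23.2, 20.9 and 23.5 in co-culture. Its groups overlapped throughout, the 95% interval ran from -0.31 to 0.53 on the log2 scale (adjusted p by limma = 0.751), and the sign turned without alone library 4. Usp18, the protease that removes ISG15 and damps the receptor, read 11.4, 14.2, 10.1 and 18.6 alone and 14.8, 14.4, 7.69 and 8.81 in co-culture (adjusted p by limma = 0.602). At 101 reads in all for Usp18, its interval of -0.859 to 0.365 left room for changes in both directions.

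Ifi44, an interferon-induced protein of the cytoplasm, was the effector called lower, and Xaf1, a pro-apoptotic interferon target, had a similar level and difference. Since both passed the filter only through the alone libraries, their values are given as a description, with the test made without a filter. Ifi44 read 21.8, 21.7, 15.2 and 19.7 normalized counts alone and 9.88, 7.74, 11 and 4.89 in co-culture. The level was low, with 115 reads over all libraries, and every co-culture lay below every alone library (no filter, log2 fold change -1.17, adjusted p by limma = 0.024). Xaf1 read 18, 14.2, 16.2 and 23.8 alone and 9.88, 13.3, 3.3 and 5.87 in co-culture, also without overlap, and did not pass (no filter, log2 fold change -1.19, adjusted p by limma = 0.0739).

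Ifi35, a partner of NMI, read 5262, 4587, 4631 and 4506 normalized counts alone and 4392, 4128, 4287 and 4367 in co-culture (fitted log2 difference -0.14, SE 0.05, adjusted p by limma = 0.0927). The groups did not overlap, alone library 1 was the highest, and without it the log2 fold change was -0.09 (adjusted p = 0.0142). Samd9l, an antiviral restriction factor, had alone library 1 as its low value instead, with 269, 393, 364 and 410 alone and 257, 310, 304 and 278 in co-culture. Its log2 fold change was -0.31 (adjusted p by limma = 0.143) and -0.44 without that library (adjusted p = 5.95e-05). Isg20, an RNA exonuclease, went from a mean of 29.9 ± 9.58 to 19.8 ± 3.29 normalized counts with overlap (adjusted p by limma = 0.15). Bst2, the surface protein tetherin that holds budding virus, ran from 8349 to 9285 alone and from 8117 to 8417 in co-culture (fitted log2 difference -0.07, SE 0.04, adjusted p by limma = 0.309).

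Of the ubiquitin ligases in antiviral signalling, Trim21 fell and Trim25 did not pass with all libraries. Trim21, the cytosolic antibody receptor, read 136, 150, 148 and 133 normalized counts alone and 107, 121, 119 and 115 in co-culture (fitted log2 difference -0.30, SE 0.08, adjusted p by limma = 0.0367). The groups did not overlap, but this was the least stable of the 8 calls. It was lost with no filter (adjusted p = 0.073), by DESeq2 (adjusted p = 0.0943) and on leaving out any library but alone library 1 (adjusted p = 0.0508 to 0.109). Trim25, the ligase that activates RIG-I, read 423, 653, 623 and 629 alone and 515, 504, 515 and 499 in co-culture. Alone library 1 lay below all co-cultures and the other alone libraries above them. The log2 fold change was -0.17 with all libraries (SE 0.12, adjusted p by limma = 0.379) and -0.32 without that library (adjusted p = 2.20e-05).

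The interferon-inducible ADP-ribosyltransferases held 3 of the 8 calls, and all 5 members of this role, Dtx3l included, were lower at an unadjusted p under 0.05, where 5.31% of all tested genes were called lower and 12.8% were lower at that unadjusted p. Parp10, a mono-ADP-ribosyltransferase, read 144, 157, 155 and 133 normalized counts alone and 81, 84, 79.1 and 105 in co-culture. Its mean fell by 40.8% with no overlap (fitted log2 difference -0.76, SE 0.11, adjusted p by limma = 0.00166), and co-culture 4 was the highest of its group. Parp12, a zinc-finger enzyme of this family that acts against RNA viruses, read 1003, 1071, 1062 and 1090 alone and 858, 880, 850 and 908 in co-culture. The spread within each group was small, and the mean fell by 17.3% (fitted log2 difference -0.27, SE 0.04, adjusted p by limma = 0.00313). Both calls held under all 18 alternatives, up to an adjusted p of 0.0138 for Parp10 and 0.0169 for Parp12.

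Parp14, a macrodomain enzyme, read 507, 735, 642 and 803 alone and 455, 506, 448 and 443 in co-culture (fitted log2 difference -0.52, SE 0.12, adjusted p by limma = 0.021). Alone library 1 nearly touched co-culture 2, and without alone library 1 the log2 fold change was -0.64 (adjusted p = 4.88e-08). For Parp14, the call ended when alone library 3, alone library 4, co-culture 1, co-culture 3 or co-culture 4 was left out (adjusted p = 0.0503 to 0.0678). Parp9 and Dtx3l, an inactive ADP-ribosyltransferase and the E3 ligase it pairs with, had similar sizes of difference. Parp9 went from 91.2 ± 10.9 to 72.8 ± 7.49 normalized counts (fitted log2 difference -0.32, SE 0.12, adjusted p by limma = 0.115) and Dtx3l from 215 ± 36.2 to 175 ± 10.4 (-0.28, SE 0.12, adjusted p by limma = 0.155). In both genes alone library 1 was the lowest of its group, and without it both passed (adjusted p = 0.0141 for Parp9 and 0.00061 for Dtx3l). Dtx3l and Parp14 are neighbours in the RefSeq gene order of CriGri-PICRH-1.0, and the strand setting of the counting is not given in the sources used here.

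Some of the family members and DTX ligases that are not on the interferon list were called lower. Of 17 tested, 4 were called lower by limma (23.5%, against 5.31% of all tested genes) and the other 13 did not pass. Over all 17, 5 were lower and 2 higher at an unadjusted p under 0.05, against 12.8% and 13.7% of all tested genes. Parp3, a DNA-break response enzyme, read 2126, 2210, 2184 and 2151 alone and 1864, 1799, 1855 and 1810 in co-culture (fitted log2 difference -0.24, SE 0.03, adjusted p by limma = 0.00138). Dtx4, a ligase that acts on the kinase TBK1, stood at 20.9 ± 7.04 alone and 5.45 ± 1.48 normalized counts in co-culture. It passed the filter on low values only through its alone libraries, which fixes its direction, and without a filter its log2 fold change was -1.73 (adjusted p by limma = 0.00482). Dtx3 fell by 0.19 on the log2 scale (adjusted p by limma = 0.0247). Its call was lost with the replicate block (adjusted p = 0.0614) and without alone library 4, co-culture 1, co-culture 2 or co-culture 3. Parp11, outside the rule for named genes, fell by 0.18 (adjusted p by limma = 0.0438). Its call was lost with no filter, by DESeq2 (adjusted p = 0.0503), with the replicate block and on leaving out any library but alone library 1.

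The members that process peptides for MHC class I gave no call but mostly negative values. Of the 6 tested, 0 were called, where 5.31% of all tested genes were called lower. At an unadjusted p under 0.05, 5 of the 6 were lower, against 12.8%, and 0 higher, against 13.7%. Psmb8 and Psmb9 encode inducible catalytic subunits that replace the standard ones in the immunoproteasome. Psmb9 read 612, 488, 511 and 486 normalized counts alone and 468, 436, 402 and 452 in co-culture (fitted log2 difference -0.25, SE 0.08, adjusted p by limma = 0.0732). Psmb8 read 1156, 944, 967 and 902 alone and 861, 882, 827 and 891 in co-culture (fitted log2 difference -0.19, SE 0.07, adjusted p by limma = 0.115). In both genes the groups did not overlap and alone library 1 was far the highest. Without it the difference was smaller, at -0.17 for Psmb9 and -0.12 for Psmb8, and passed (adjusted p = 0.0298 and 0.0479). Psmb10, the third inducible subunit, went from 825 ± 115 to 711 ± 43.8 normalized counts with overlap (adjusted p by limma = 0.166).

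Of 17 further antigen presentation genes tested, 3 were called lower by limma (17.6%, against 5.31% of all tested genes). Psme3 alone was called higher, against 6.36%, and the other 13 did not pass. Over all 17, 4 were lower and 2 higher at an unadjusted p under 0.05, against 12.8% and 13.7% of all tested genes. The standard subunits Psmb5, Psmb6 and Psmb7 had log2 fold changes of -0.062, -0.042 and -0.035 (adjusted p by limma = 0.527, 0.713 and 0.731), and without alone library 1 these were 0.003, 0.028 and 0.028. Their intervals reached down to -0.191, -0.185 and -0.162, and the difference from the inducible subunits was not tested. Of the proteasome activators, Psme1, part of the interferon-inducible cap and outside the rule for named genes, fell by 0.17 (SE 0.05, adjusted p by limma = 0.046). Its call was lost with no filter, with the replicate block and on leaving out any library but alone libraries 1 and 2. Psme3, the nuclear activator that is not part of that cap, rose from 6227 ± 133 to 7146 ± 61.7 normalized counts (fitted log2 difference 0.20, SE 0.03, adjusted p by limma = 0.00193), under all 18 alternatives.

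**Figure D4:**
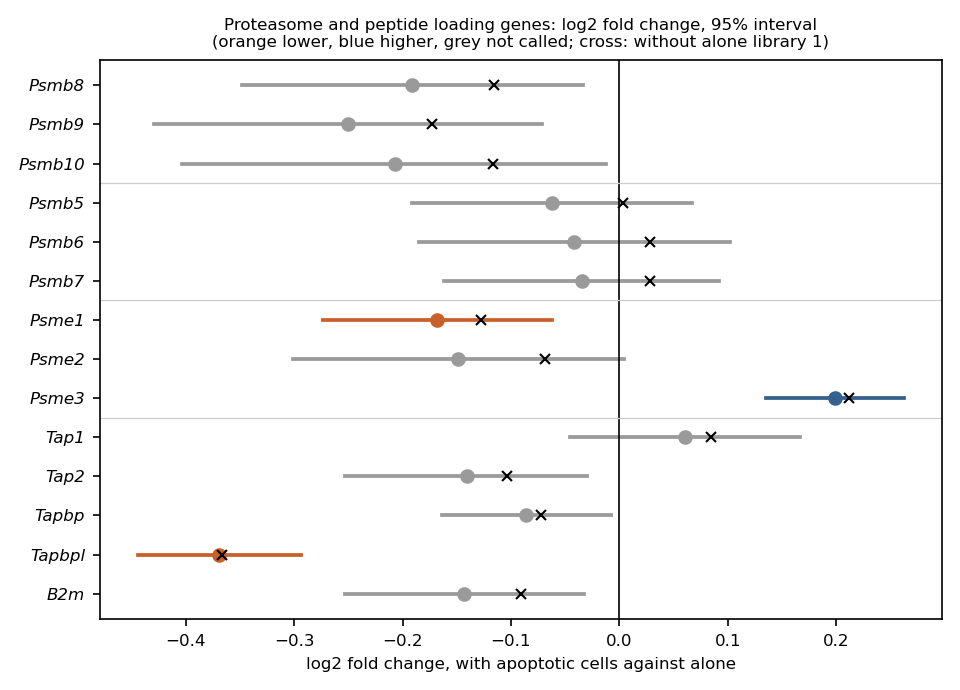
Log2 fold change (points) and 95% interval (lines) for inducible (Psmb8 to Psmb10) and standard (Psmb5 to Psmb7) proteasome subunits, proteasome activators, peptide transporters and loading genes; crosses give the value without alone library 1. Psme1 (-0.17) and Tapbpl (-0.37) are called lower, Psme3 (0.20) is called higher, and the standard subunits move to 0.003, 0.028 and 0.028 without alone library 1.

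Tap1 and Tap2 encode the subunits of the transporter that carries peptides into the endoplasmic reticulum, and neither passed. Tap1 read 1014, 991, 937 and 924 normalized counts alone and 955, 1046, 994 and 1035 in co-culture (fitted log2 difference 0.06, SE 0.05, adjusted p by limma = 0.455). Tap2 read 1710, 1624, 1514 and 1489 alone and 1452, 1404, 1388 and 1495 in co-culture (fitted log2 difference -0.14, SE 0.05, adjusted p by limma = 0.101), and it overlapped only through co-culture 4. Tap1, Psmb8 and Tap2 follow each other in the RefSeq gene order. Tapbp, the tapasin that bridges MHC class I to the transporter, stood at 8076 ± 263 and 7608 ± 227 (fitted log2 difference -0.09, SE 0.03, adjusted p by limma = 0.148). Its relative Tapbpl, which edits peptides and is not among the 50 genes, fell from 2154 ± 36.9 to 1668 ± 38.4 normalized counts (fitted log2 difference -0.37, SE 0.03, adjusted p by limma = 0.000128), under all 18 alternatives. B2m, the light chain of MHC class I, read 7006, 5987, 6263 and 5967 alone and 5551, 5771, 5817 and 5662 in co-culture. The groups of B2m did not overlap, but its log2 fold change of -0.14 did not pass (adjusted p by limma = 0.0938) except without alone library 1 or with array weights (0.0119 and 0.00886). Rfx5, a regulator of MHC gene promoters, fell by 0.17 (adjusted p by limma = 0.045). Its call was lost with no filter, with the replicate block and on leaving out any library but alone library 1.

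Alone library 1 differed from its group in both directions. Compared with the mean of the other alone libraries, it was lower by at least 0.2 on the log2 scale in 10 tested members and higher by at least 0.2 in 10, 29.4% each, against 23.1% and 18.9% of all tested genes. The 10 low ones were Stat2, Ddx58, Ifih1, Adar, Samd9l, Usp18, Trim25, Parp9, Parp14 and Dtx3l, down to -0.64 for Ifih1. The 10 high ones were Irf3, Irf7, Dhx58, Isg15, Isg20, Ifi35, Ifi44, Psmb8, Psmb9 and Psmb10, up to 0.77 for Isg20. Irf1, Irf2, Oasl, Parp10, Parp12 and Trim21 were within 0.2 of the rest of the group in that library. The median deviation of the tested members from their own means was 0.12, 0.12, 0.10 and 0.12 in alone libraries 1 to 4 and -0.07, -0.09, -0.10 and -0.08 in co-culture libraries 1 to 4, beside a median of 0.00 over all tested genes in every library.

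**Figure D5:**
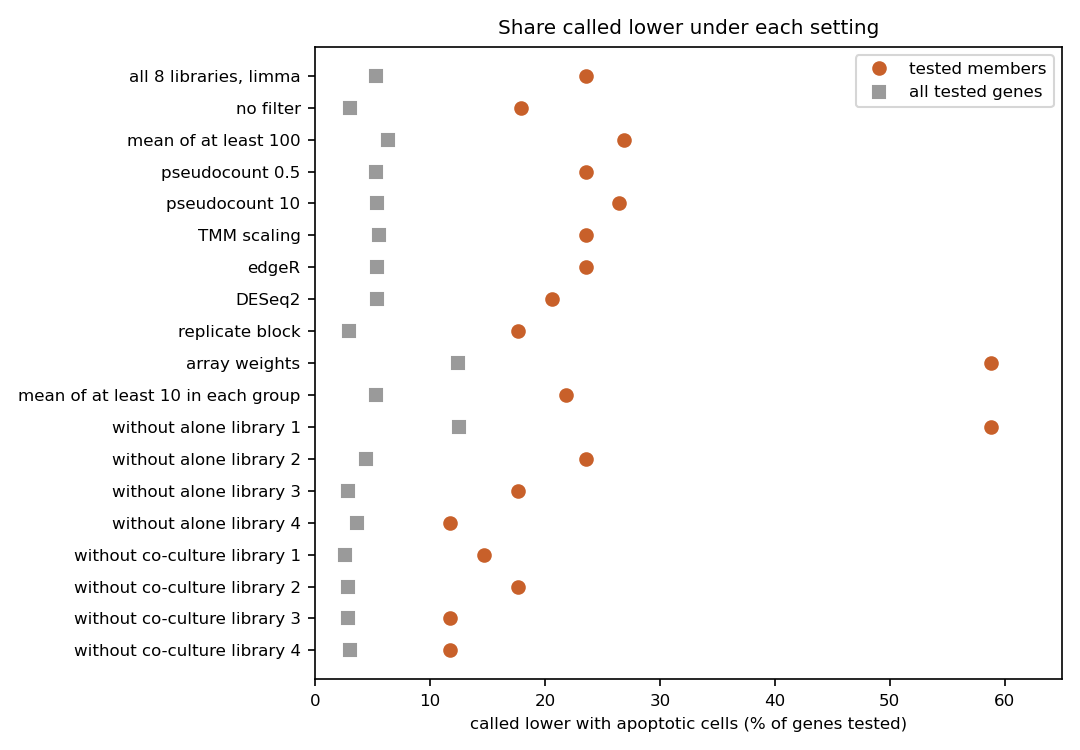
Share of tested genes called lower (horizontal axis, percent) among the members (circles) and among all genes (squares), for the limma test with all 8 libraries and for each alternative. Among members 8 of 34 are called with all libraries, 20 without alone library 1 or with array weights and 4 without alone library 4, co-culture 3 or co-culture 4, while the share of all genes runs from 2.64 to 12.5%. Ifi44 and Xaf1, whose direction the filter fixes, are among the 20 in both settings.

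Of 166 further pathway genes, 129 had a row and 100 were tested. By limma 13 of these were called lower, against 5.31% of all tested genes, and 1, Psme3, higher, against 6.36%, and DESeq2 called 2 higher. At an unadjusted p under 0.05, 26 were lower and 7 higher, against 12.8% and 13.7%. With a mean of at least 10 asked of each group, which leaves out Dtx4, 12 of 98 were called lower and 1 higher, against 5.32% and 6.34%. Their median log2 fold change was -0.05. Leaving out alone library 1 gave 34 lower and 6 higher, against 12.5% and 13.4% of all tested genes. The number lower was 11, 5 and 6 of 100 without alone libraries 2, 3 and 4 in turn, against 4.42%, 2.86% and 3.62% of all tested genes. When co-cultures 1 to 4 were left out in turn, it was 5, 7, 4 and 5, against 2.64%, 2.9%, 2.82% and 3.07%. With no filter, 8 of 119 were called lower, against 3.06%. No interferon gene could be tested, since Ifnk and Ifne were listed at 0 reads, Ifng had 9 reads in all, and Ifnb1 had no row of that name.

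In the receptor and JAK-STAT list, 3 of 17 tested genes fell (17.6%, against 5.31% of all tested genes) and the other 14 did not pass. Over all 17, 6 were lower and 1 higher at an unadjusted p under 0.05, against 12.8% and 13.7% of all tested genes. Jak2, the kinase on the interferon gamma receptor, read 4151, 4640, 4582 and 4610 normalized counts alone and 3977, 4028, 3908 and 3807 in co-culture (fitted log2 difference -0.19, SE 0.04, adjusted p by limma = 0.0149). Its highest co-culture lay below alone library 1, the lowest of its group. Ifngr2, a subunit of that receptor, fell by 0.20 (adjusted p by limma = 0.0383). Ptpn6, a phosphatase that opposes JAK signalling, fell by 0.78 on the log2 scale, from 29.8 ± 4.93 to 16.9 ± 2.28 normalized counts (adjusted p by limma = 0.0182). Leaving out alone library 3, co-culture 3 or co-culture 4 ended the Jak2 call (adjusted p = 0.0512 to 0.0551). Ifngr2 lost its call when alone library 3 or any single co-culture was left out (adjusted p = 0.0607 to 0.11). Ptpn6 lost its call without alone library 4 or co-culture 1 (adjusted p = 0.0528 and 0.0566) and with the replicate block (adjusted p = 0.0522).

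Among further sensing genes, 1 of 26 tested fell (3.85%, near the 5.31% of all tested genes) and the other 25 did not pass. Over all 26, 2 were lower and 0 higher at an unadjusted p under 0.05, against 12.8% and 13.7% of all tested genes. The gene that fell was Traf2, a signalling adaptor, at 3096, 2926, 2915 and 2873 normalized counts alone and 2774, 2667, 2525 and 2593 in co-culture (fitted log2 difference -0.16, SE 0.04, adjusted p by limma = 0.0262). The groups of Traf2 did not overlap, and its call ended on leaving out alone library 3, co-culture 2, co-culture 3 or co-culture 4 (adjusted p = 0.0656 to 0.0849). Among further effectors, 2 of 23 tested fell (8.7%, against 5.31% of all tested genes) and the other 21 did not pass. Over all 23, 9 were lower and 2 higher at an unadjusted p under 0.05, against 12.8% and 13.7%. Lgals3bp, a secreted glycoprotein that binds galectins, fell from 14456 ± 122 to 13368 ± 230 normalized counts (-0.11 on the log2 scale, adjusted p by limma = 0.0231). Lgals9, a galectin, fell from 665 ± 19.4 to 592 ± 18.9 normalized counts (-0.17, adjusted p by limma = 0.0379). Both calls were lost with no filter and with the replicate block, and that of Lgals9 by DESeq2 (adjusted p = 0.0628). Of left-out libraries, the Lgals3bp call held only without alone library 1, alone library 2 or co-culture 2, and that of Lgals9 only without alone library 1 or alone library 2. Without alone library 1 the effector list had 12 of 23 genes lower and 1 higher, against 12.5% and 13.4% of all tested genes.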

How the data were processed

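RNA-seq was made from 8 samples, 4 of LR73 cells alone and 4 with apoptotic Jurkat cells, with column-purified total RNA and TruSeq mRNA libraries, per the labels' protocols. The submitters' processing notes name STAR, featureCounts, FastQC and DESeq2 but no version. No build, annotation or strand setting is given in the sources used here. The authors deposited 1 table of signal values per library, read from its steps as counts divided by 1 size factor: 100% were whole multiples of 1 read within 0.01 reads, so reads were recovered. It also holds the authors' deposited log2 fold changes and adjusted p-values, the former drawn towards 0, and they are quoted only where named. Columns were matched to samples by number and by the letters AC.

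The test was limma-trend (limma 3.58.1, R 4.3.3) on log2 of the normalized count plus 1, over the 13494 genes whose mean reached 10, with group as the only term and Benjamini-Hochberg adjusted p under 0.05 over all of them. The pseudocount understates the change of low genes. The limma fit was tested on simulated counts. Intervals are 95% limma intervals. Count tests on recovered reads used edgeR 4.0.16 (quasi-likelihood, TMM), which called 5.37% of genes lower and 6.2% higher, and DESeq2 1.42.0 (5.34% and 6.58%). Other alternatives were another filter, pseudocounts of 0.5 and 10, TMM scaling, array weights, the replicate block, leaving out each library and, chosen after seeing the data, a mean of at least 10 in each group. Unnamed features (0.14 to 0.176% of reads) were left out. Floors are 3 reads per library and cover counting error only. Figures were drawn with matplotlib 3.10.9.

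The members and lists were chosen with earlier results of these data known. Every member is accounted for. Values in every library are given for called members, the 6 smallest unadjusted p among the rest under 0.05 and a fixed set. Of that set, Tmem173, Ifit2 and Ifit3 have a range or total reads only. Up to 3 called genes of each other list are named with B2m, several of them with group means or a fold change only. Tbk1 and Ifnb1, also fixed, had no row. Of the 42 members in the table, 39 had a symbol in the RefSeq table (CriGri-PICRH-1.0), used for names and gene order only. Promoter motifs and sequences were not analysed here. A result on 1 further gene is not reported here.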

Additional observations from a re-analysis of the deposited data

Results flagged for a closer look

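Of 68 sets of 4 values (34 tested members in each of 2 groups), 6 held a library far from the others of its group by Dixon's ratio (the gap to the nearest library over the whole range, above its 95% critical value). Chance flags about 1 in 20. In 5 of the 6 it was alone library 1. That library was the lowest for Ifnar1 (1780 normalized counts against 1996 to 2019, ratio 0.905), Trim25 (423 against 623 to 653, ratio 0.871) and Parp9 (75 against 95 to 98.3, ratio 0.862). It was the highest for Bst2 (9285 against 8349 to 8435, ratio 0.909) and Ifi35 (5262 against 4506 to 4631, ratio 0.835). Dhx58 was low in alone library 2 (16.7 against 28.4 to 30.4, ratio 0.856).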

How the results depend on the processing

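The count of tested members called lower ranged from 4 to 20 when single libraries were left out and was 20 with array weights (12.4% of all tested genes), and 6 to 9 under the other alternatives, with 0 called higher under each. Ifi44, whose direction the filter fixes, is in these counts unless a stricter filter removed it. Xaf1, for which the same holds, is in both counts of 20, in the 9 with a pseudocount of 10 and in the 6 without co-culture 2. The number wholly below the alone values was 13 to 20 when single libraries were left out. Fewer libraries make such separation easier for every gene, so this range is no check on stability. Of the left-out settings, the share of all tested genes was computed only without alone library 1 (15.7%). A mean of at least 10 in each group, chosen after seeing the data, left 7 called. The median log2 fold change was negative under each alternative (-0.275 to -0.18). Of 602 values of single tested members under alternatives, 540 kept direction and side of the threshold, 25 lost a call, 27 gained one and 10 turned in sign. Over left-out libraries, log2 fold changes were -0.068 to 0.043 for Stat2, -0.027 to 0.015 for Mavs, -0.068 to 0.056 for Adar, -0.025 to 0.224 for Isg15, -0.092 to 0.003 for Psmb5, -0.071 to 0.028 for Psmb6 and -0.063 to 0.028 for Psmb7. With array weights they were -0.047 for Adar, 0.021 for Psmb6 and 0.018 for Psmb7. The cause was not tested. With the replicate block, 6 members were called lower, all also called without it (Irf2 and Trim21 were not, adjusted p = 0.0768 and 0.0775). Of the further pathway genes, 6 of 100 were called lower with the block, which called 2.96% of all tested genes lower. Same-numbered libraries of the 2 groups did not deviate together (r across tested genes -0.0898 to 0.0682), and 2 of 8 libraries correlated best with their own number. Depth limits Irf5, Tmem173, Ifit2 and Ifit3 (5 to 32 reads in all), for which no change was detectable, and leaves wide intervals for Isg15, Usp18 and Xaf1. The promoter motif alternative was not run.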
